A study of Mus musculus with 12 samples.

Results

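MicroRNA precursors were followed through 77 kidney transcripts whose best database match names a miRNA, out of 42452 putative noncoding transcripts measured. Members were taken by the text of the match alone: 79 transcripts carried a miRNA term, 26 of the kept ones from fRNAdb and 51 from Ensembl, and 2 were left out beforehand. The libraries came from kidney tissue of C57BL/6J mice, either wild-type (WT) or Smad3 knockout (KO); the labels name the KO genotype without describing the allele. In each genotype kidneys were normal, obstructed by unilateral ureteral obstruction (UUO; left ureter tied, kidney taken on day 5), or taken from mice with anti-GBM glomerulonephritis. For the latter, mice were immunised with sheep IgG and given sheep antibody against mouse glomerular basement membrane at 60 μg/g. The protocol names a further antibody injection 10 days later. Whether the anti-GBM kidneys were taken on day 10 is not clear from the sources used here. Each of the 6 groups had 2 libraries, 12 in all, each from its own animal by the animal numbers in the labels. The UUO protocol describes sham-operated controls, while the libraries compared here are labelled normal and no sham library was analysed. UUO is a model of tubular injury and fibrosis and anti-GBM disease a model of immune glomerular injury. Smad3, the signal carrier of TGF-beta that the KO mice lack, and protein-coding markers of kidney were not analysed here.

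A miRNA is cut from a longer RNA. The primary transcript folds into a hairpin, the nuclease Drosha cuts the hairpin out in the nucleus, and Dicer trims it in the cytoplasm to the mature miRNA, whose seed pairs with target mRNAs. Some hairpins lie in their own noncoding transcripts, others in introns or exons of protein-coding genes. In fibrotic kidney, TGF-beta and Smad3 are known to raise miR-21 and lower miR-29. Here RNA over 150 bases was selected, so that neither mature miRNAs nor free hairpins were measured. The values are levels of transcripts of 229 to 6491 bases (median 1349) that matched a hairpin's database entry, and such a match does not show that the transcript contains or releases the hairpin.

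The 77 transcripts matched 51 distinct miRNAs, and 14 of these were matched by more than 1 transcript. The matched hairpins were then placed on the genome (mm9), which divided the transcripts into 3 classes that were set after the data were seen. The first class, 42 transcripts called mRNA-embedded here, matched 22 miRNAs whose hairpin overlaps coding sequence or an untranslated region of a protein-coding gene, on either strand, or closely resembles such an mRNA. The second, 16 high-copy transcripts, matched 10 miRNAs whose hairpin has over 100 near copies (90% identity over 90% of its length) in the genome. Counts of near copies include the hairpin's own locus. The other 19 transcripts, with 19 miRNAs, are the remainder. Their hairpins lie in introns, between genes, in pseudogenes or in noncoding RNAs. That of mir-22 also lies in an exon annotated to the protein-coding gene Tlcd2, and that of mir-15a was not placed. A search placed 48 hairpins; 26 of them had 1 genomic match and 15 had over 10.

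The sequences of the first class show what its reads can stem from. The hairpin annotated as AC151602.1 is the end of the coding sequence of Ftl1, the ferritin light chain, which stores iron; it is shown from chr7:52713477-52713567 on the minus strand (mm9) with the stop codon in capitals. The mir-686 hairpin at chr14:55235514-55235622, minus strand, is coding sequence of Psmb5, a catalytic subunit of the proteasome; the capitals mark the mature miRNA. The mir-682 hairpin at chr13:75782494-75782589, plus strand, lies in the pseudogene Gm4149 and differs at 1 of 96 bases, in capitals, from the coding sequence of the ribosomal protein gene Rpl37a on chromosome 1.
AC151602.1 hairpin, Ftl1 coding part: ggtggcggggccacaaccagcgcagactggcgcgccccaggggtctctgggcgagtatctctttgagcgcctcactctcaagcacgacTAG
mir-686 hairpin, Psmb5 coding part: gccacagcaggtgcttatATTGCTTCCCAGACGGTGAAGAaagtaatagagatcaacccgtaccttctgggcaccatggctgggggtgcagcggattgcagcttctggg
mir-682 hairpin: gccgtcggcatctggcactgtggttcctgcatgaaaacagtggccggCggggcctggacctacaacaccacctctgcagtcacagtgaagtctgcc
Rpl37a coding sequence: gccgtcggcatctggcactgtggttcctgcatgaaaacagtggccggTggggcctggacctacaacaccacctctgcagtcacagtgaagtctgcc

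Sequences of the high-copy class are repeats. The 3 hairpins below are matched by 4 transcripts, vary at only 3 of 60 positions (capitals), and have 97736, 97463 and 101437 near copies in the genome in the order shown. They lie at chr3:94768688-94768747, chr10:116337317-116337376 and chr10:77369209-77369268, all on the minus strand.
ENSMUSG00000089216: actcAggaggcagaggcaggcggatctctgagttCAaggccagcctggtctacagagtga
ENSMUSG00000088033: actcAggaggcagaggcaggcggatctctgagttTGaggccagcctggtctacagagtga
ENSMUSG00000088507: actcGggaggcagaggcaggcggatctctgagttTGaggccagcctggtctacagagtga

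For 25 of the 51 miRNAs RefSeq (GRCm38.p6) gave mature sequences, none of them of the high-copy class. One arm is shown for each of 10 of the miRNA genes described one by one below, 9 at other loci and the mRNA-embedded mir-147, with the seed, bases 2 to 8, in capitals. Of all the seeds found, miR-15a-5p and miR-322-5p shared one and no other pair did.
mmu-let-7c-5p: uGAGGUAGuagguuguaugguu
mmu-miR-125b-5p: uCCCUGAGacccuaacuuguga
mmu-miR-22-3p: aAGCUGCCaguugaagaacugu
mmu-miR-15a-5p: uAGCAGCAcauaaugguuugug
mmu-miR-322-5p: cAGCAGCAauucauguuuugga
mmu-miR-615-3p: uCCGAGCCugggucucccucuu
mmu-miR-196a-5p: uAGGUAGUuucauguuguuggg
mmu-miR-365-3p: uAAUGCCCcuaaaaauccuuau
mmu-miR-345-5p: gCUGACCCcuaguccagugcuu
mmu-miR-147-5p: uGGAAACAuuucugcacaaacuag

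Reads per library ranged from 4595261 to 7342937, of which the 77 transcripts took between 0.1691% and 0.367%. A library listed 53 to 72 of them; 41 were listed in all 12 libraries and 36 had 0 reads in at least 1. The libraries that stood apart were 3, namely WT UUO 1, KO UUO 1 and KO anti-GBM 1. In them the bases covered per read were few, with breadth ratios (median covered share divided by the share that randomly placed reads would cover) of 0.4445, 0.2836 and 0.3355, against 0.6313 to 0.905 in the other 9. One noncoding transcript that is no member, ncRNA_aligned_7824, took 15.68% to 36.35% of their reads and 1.703% to 6.903% in the others. Libraries are compared below by CPM, the reads of a transcript scaled to the TMM-adjusted size of its library, and transcripts by RPKM, which is also per length. Names such as aligned_5220 shorten the deposited ncRNA_aligned_5220. In whole tissue, fewer cells of a type and less RNA per cell cannot be told apart.

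Most of the reads belonged to the mRNA-embedded class. Its 42 transcripts held 84.6% of the members' reads, the high-copy class held 11.4%, and the 19 transcripts of the other loci held 4.02%. The median of the mean RPKM was 5.23 in the mRNA-embedded class, 2.96 in the high-copy class and 1.98 at the other loci. Over all 77 it was 2.84, beside 1.71 over all 42452 transcripts.

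**Figure D1:**
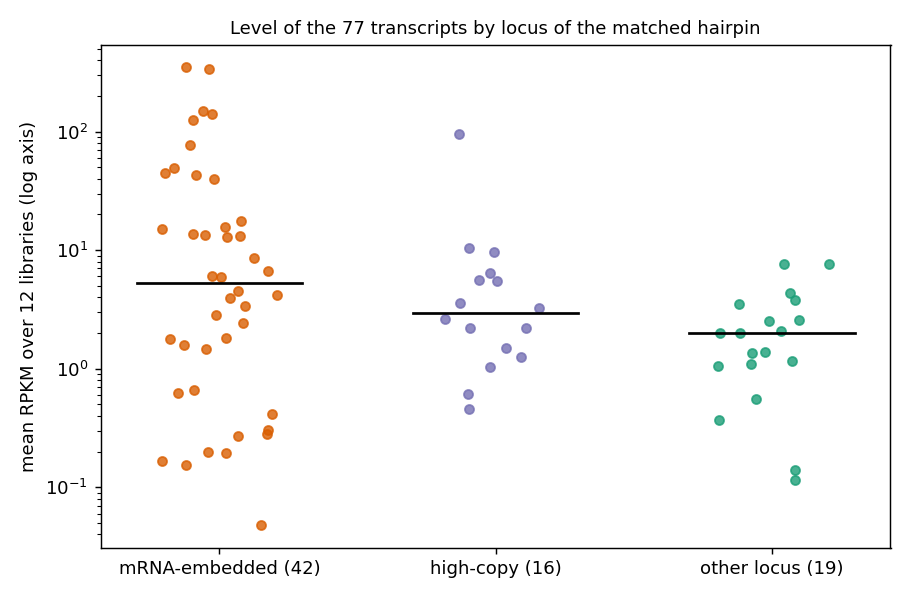
Mean RPKM over 12 libraries (log axis) of each of the 77 transcripts by class of the matched hairpin's locus; each point is a transcript and the bars are class medians, 5.23, 2.96 and 1.98. The highest points are mRNA-embedded, at up to 347 RPKM, while the other loci reach 7.69 RPKM.

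The 10 transcripts of highest mean RPKM were 9 mRNA-embedded ones and 1 of the high-copy class. The highest was aligned_6485, matched to mir-682 and Rpl37a-like, with 347 RPKM, followed by aligned_6148 with 334 RPKM. The latter, like aligned_6151 (139.8 RPKM) and aligned_6149 (125.5 RPKM), matched AC156572.1, a hairpin at chr13:62880954-62881036 that differs at 3 of 83 bases from the mRNA of Ptma, prothymosin alpha. Then came aligned_7774 of mir-686 in Psmb5 with 149.7 RPKM, and the high-copy aligned_3484 with 95.97 RPKM, whose hairpin has 574 near copies. The Ftl1 transcript aligned_5220 had 76.46 RPKM. Between 40 and 50 RPKM lay aligned_1780 (48.97), matched to mir-702, whose hairpin overlaps coding sequence of Plod3, a lysyl hydroxylase of collagen, only in part. In the same range were aligned_2663 (44.84; mir-707 in the untranslated region of Akt1s1, an inhibitor of mTORC1) and aligned_6483 (43.12; mir-2139 within coding sequence of Klhdc7a). At 40.18 RPKM, aligned_3500, matched to a hairpin in the untranslated region of Slc25a34, a mitochondrial carrier, came just after them. Neighbours in this order were not separated by their ranges over libraries: aligned_6485 ran from 42.32 to 628 RPKM and aligned_6148 from 6.356 to 647.1.

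Of the 77, 59 passed the filter on low counts and were tested with edgeR's quasi-likelihood test in 12 comparisons, together with 24816 transcripts in all. A transcript was called when its Benjamini-Hochberg adjusted p over those 24816 was under 0.05. With 2 libraries a group, 2 against 2 cannot give a permutation p under 0.3333, so every call rests on the spread pooled over the 12 libraries. Members that share a matched hairpin are not independent of each other.

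In obstructed WT kidney 2 transcripts fell and none rose, and averaged over both genotypes 4 fell and none rose; all 4 were mRNA-embedded. The WT count of 2 of 59 compares with 2.42% called of all transcripts (1.74% lower), and the averaged count of 4 of 59 with 3.4% (2.28% lower). As shares, 3.39% of the tested members were called in WT and 6.78% averaged; whether these differ from the shares over all transcripts was not tested. DESeq2 called 7 of 59 in WT, beside 5.55% of all, and 5 averaged, beside 6.96%. Without the 3 libraries of low breadth described above edgeR called 11 of 63 in WT (17.5%), beside 10.9% of all, and 11 of 63 averaged, beside 9.65%. The called transcripts were aligned_5220 and aligned_5140 of the Ftl1 hairpin, aligned_3500 of Slc25a34 and aligned_7774 of Psmb5.

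The Ftl1 hairpin shown above has 11 near copies in the genome, its own locus included. It resembles mRNAs of 2 coding genes, Ftl1 among them. It was matched by 4 transcripts, and which copy each stems from was not tested. The most abundant, aligned_5220, had 162 and 112.8 CPM in WT normal kidney and 100.8 and 215.6 in KO normal kidney. After obstruction it had 26.04 and 42.02 CPM in WT and 28.33 and 40.58 in KO. All 4 obstructed libraries lay below all 4 normal ones. In anti-GBM kidney it had 56.71 and 83.05 CPM in WT, and 75.74 and 217.1 in KO, where the 2 libraries spanned the normal range. The averaged obstruction change was -2.11 ± 0.39 on the log2 scale (SE; edgeR adjusted p = 0.00272). It fell by 2.01 ± 0.54 in WT (edgeR adjusted p = 0.0484), and the KO value of -2.20 ± 0.55 did not pass (edgeR adjusted p = 0.240). Without WT normal 1 or WT UUO 1 the WT adjusted p from edgeR was 0.270 and 0.229, and the averaged call held in each of the 12 fits that left out 1 library.

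The second transcript of this hairpin that was called, aligned_5140, had 8.077 and 11.63 CPM in WT normal and 9.274 and 23 in KO normal kidney. After obstruction its levels were 2.071 and 1.334 CPM in WT and 1.269 and 3.992 in KO. Here too the 4 obstructed libraries lay below the 4 normal ones. The averaged change was -2.58 ± 0.62 (SE, log2; edgeR adjusted p = 0.0187), and without KO normal 2 edgeR's adjusted p was 0.0954. Another transcript of it, aligned_5142, had 32.95 and 29.28 CPM in WT normal, 6.806 and 21.01 in WT UUO, 38.31 and 55.69 in KO normal and 8.669 and 15.8 in KO UUO. Its obstructed libraries also lay below its normal ones, without passing the test (averaged log2 -1.55 ± 0.50, edgeR adjusted p = 0.0902). The remaining one, aligned_5141, never exceeded 0.9019 CPM and was not tested. A transcript of a ferritin-like pseudogene hairpin, aligned_2535 (Gm5278, chr3:93237119-93237227), stayed between 0.1057 and 3.551 CPM.

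The deposited counts of aligned_5220 and aligned_5140 were even numbers in all 12 libraries. This held for 102 of the 19498 transcripts with reads in 10 or more libraries, and for these 2 of the 59 such members. What makes them even was not tested. With these counts halved, a setting chosen after seeing the data, aligned_5220 kept its averaged call but lost the WT one (edgeR adjusted p = 0.0648), and aligned_5140 lost its averaged call (edgeR adjusted p = 0.0545).

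Slc25a34's transcript aligned_3500 had the lowest adjusted p of the WT falls. WT normal kidney had 147.3 and 152.4 CPM and WT UUO kidney 28.41 and 17.43. In KO the normal libraries had 191.7 and 172.5 CPM and the obstructed ones 88.27 and 91.15. The groups did not overlap in either genotype, and the WT obstructed libraries were the lowest of all 12. The WT change was -2.71 ± 0.51 (SE, log2; edgeR adjusted p = 0.00404) and the averaged change -1.87 ± 0.35 (edgeR adjusted p = 0.00323), and both were called in each of the 12 fits that left out 1 library. In KO kidney alone it was -1.02 ± 0.48 (edgeR adjusted p = 0.823). The transcript was covered over 63.49% to 95.41% of its 2747 bases.

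This transcript also had the largest genotype difference in obstructed kidney among these 4, which did not pass the test. KO UUO libraries exceeded both WT UUO ones by 1.97 ± 0.50 (SE, log2; edgeR adjusted p = 0.261). The obstruction response differed between KO and WT by 1.69 ± 0.68 (edgeR adjusted p = 0.736). In anti-GBM kidney it had 82.76 and 76.13 CPM in WT and 110.3 and 335 in KO. Averaged over the 3 states KO exceeded WT by 1.25 ± 0.28 (edgeR adjusted p = 0.134), with KO above WT for every pair of libraries in each state. By DESeq2 the averaged difference passed (adjusted p = 0.0224). Without the 3 libraries of low breadth, where 3 groups have 1 library, edgeR's averaged log2 difference was 1.61. Leaving out 1 library at a time it ran from 0.90 to 1.46.

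Psmb5's transcript aligned_7774 matched a hairpin with 3 near copies, its own locus included. The transcript had 247.8 and 184.1 CPM in WT normal and 65.69 and 81.37 in WT UUO kidney. KO normal kidney had 168.6 and 208.8 CPM and KO UUO kidney 88.8 and 104.3. Again no obstructed library reached a normal one. The averaged change was -1.26 ± 0.30 (SE, log2; edgeR adjusted p = 0.0170), while the WT change of -1.55 ± 0.42 narrowly missed the threshold (edgeR adjusted p = 0.0503). Without WT normal 1, WT UUO 1 or KO normal 2 edgeR's averaged adjusted p was 0.123, 0.0560 and 0.0732. In anti-GBM kidney it had 128.2 and 117 CPM in WT and 258.4 and 368.1 in KO, the highest pair of the 6 groups (KO against WT log2 1.35 ± 0.42, edgeR adjusted p = 0.221).

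**Figure D2:**
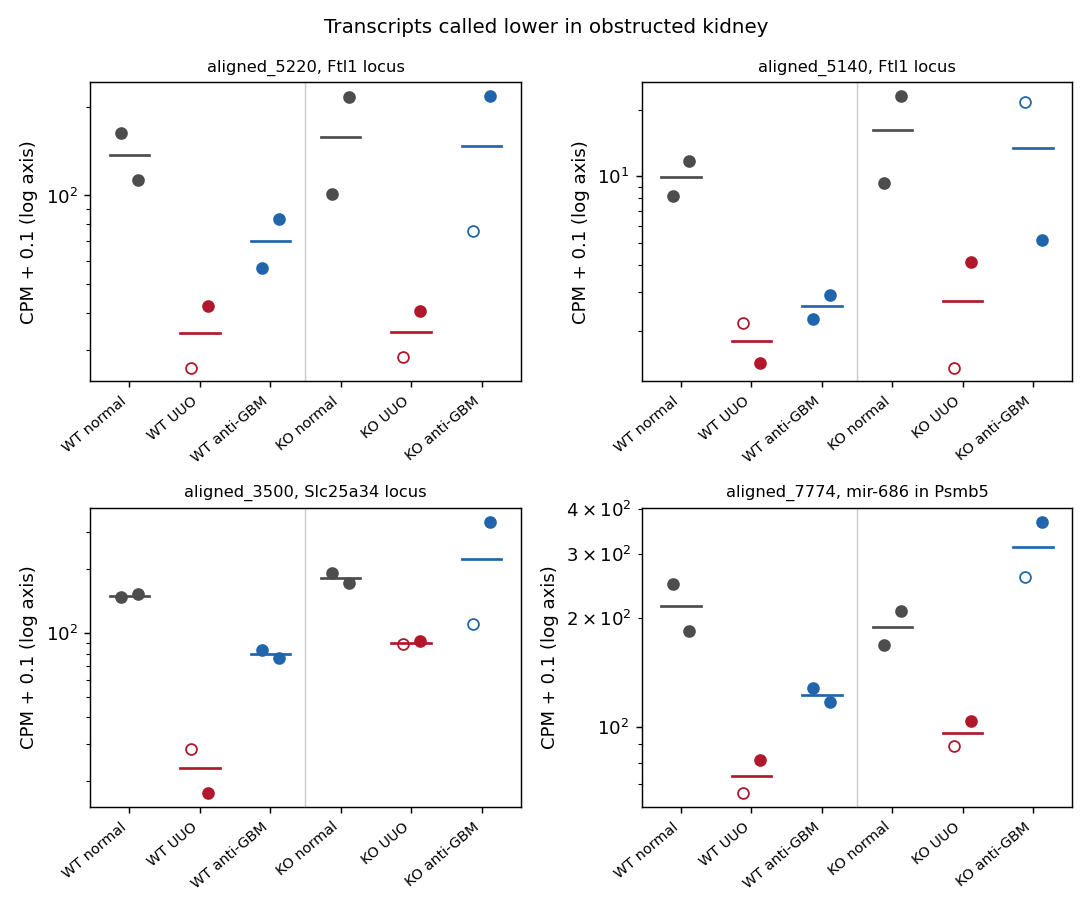
CPM + 0.1 (log axis) by group for the 4 transcripts called lower in obstructed kidney; points are libraries, open points the 3 libraries of low breadth, and bars group means. In each panel the 4 UUO libraries lie below the 4 normal ones.

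The 4 falls kept their direction under every scaling tried, but their size did not: with library size alone the averaged log2 changes were -1.27 for aligned_5220, -1.80 for aligned_5140, -1.04 for aligned_3500 and -0.42 for aligned_7774. With library size alone the median over all transcripts was 1.05 in the averaged obstruction comparison, against 0.25 with TMM. Calls of aligned_5140 and aligned_7774 were lost there (edgeR adjusted p = 0.0633 and 0.328). Without the 3 libraries of low breadth all 4 averaged calls held, with log2 changes from -1.18 to -2.48.

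Taken as a class, the tested mRNA-embedded transcripts had lower fitted values more often than higher ones after obstruction. In WT 26 of 34 lay below 0, with a median log2 of -0.72 beside 0.49 over all transcripts, of which 61.1% lay above 0. With library size alone 11 of 34 lay below 0 and the median was 0.32 beside 1.53, with 81.3% of all transcripts above 0. In KO 24 of 34 lay below 0 (median -0.38 beside 0.00), with 50.1% of all transcripts above 0. At the other loci 8 of 14 lay below 0 in WT (median -0.04) and 7 of 14 in KO (median -0.09). The high-copy class had medians of 0.22 in WT and 0.55 in KO. Since the scaling turned the sign of the class medians, they describe the members relative to other transcripts and show no change of their own.

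**Figure D3:**
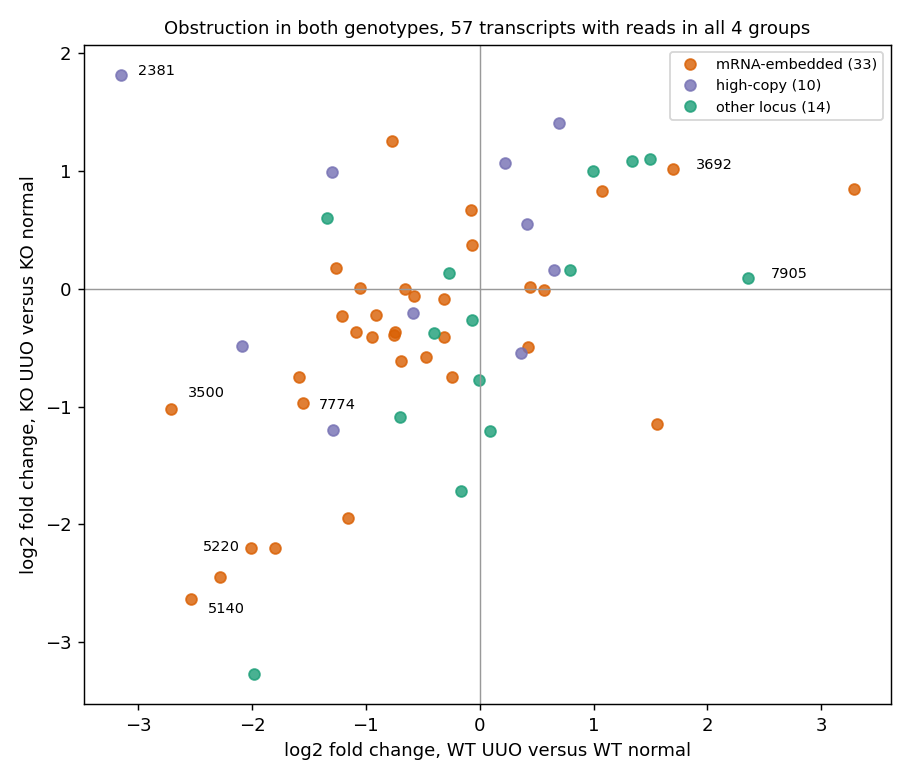
Log2 change with obstruction in WT (x axis) and KO (y axis) for the 57 tested transcripts with reads in each of the 4 groups, coloured by class, with TMM scaling; with library size alone most values move above 0. The Ftl1 transcripts aligned_5220 and aligned_5140, aligned_3500 and aligned_7774 lie below 0 in both, and aligned_2381 lies below 0 in WT and above 0 in KO.

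The 2 transcripts of highest RPKM had their lowest values in the libraries of low breadth. Ptma-like aligned_6148 had 7.397, 5.497 and 15.1 CPM in the 3 libraries of low breadth and 257.9 to 765.2 in the other 9, that is 50, 52 and 59 reads against 2318 to 5968. It was called in no comparison (lowest edgeR adjusted p = 0.781). Mir-682's aligned_6485 had 25, 39.01 and 71.39 CPM in these 3 libraries, in the same order, and 207.8 to 672.4 in the others. Among the 9 other libraries WT UUO 2 and KO UUO 2 had the lowest values of this transcript, 207.8 and 253.8 CPM. Its averaged obstruction change was -1.997 ± 0.97 (SE, log2; edgeR adjusted p = 0.339), and the part that breadth has in it was not tested. The other 2 abundant Ptma-like transcripts were less uneven. Aligned_6151 ran from 38.37 CPM in KO UUO 1 to 298.2 in KO UUO 2, and aligned_6149 from 51.27 to 315.

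**Figure D4:**
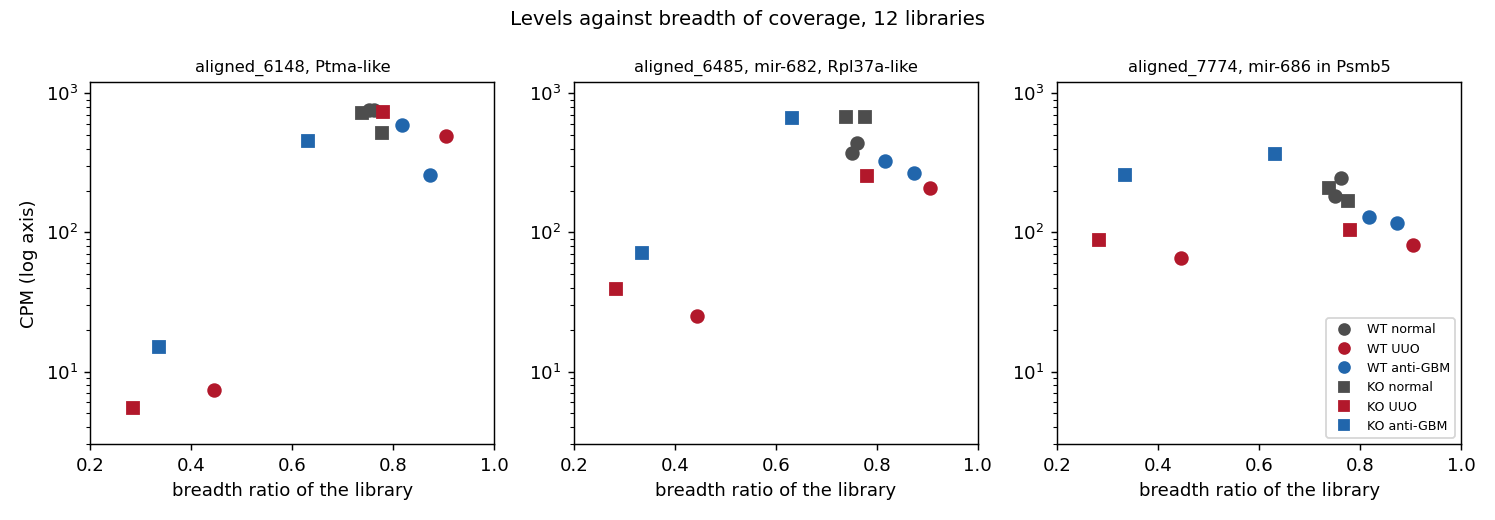
CPM (log axis) of aligned_6148, aligned_6485 and aligned_7774 against the breadth ratio of each of the 12 libraries; circles are WT and squares KO, coloured by state. The first 2 transcripts are lowest in the 3 libraries with ratios under 0.5, and aligned_7774 is not.

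Among the other abundant members, aligned_3484 and aligned_1780 were called by edgeR with TMM scaling in none of the 12 comparisons; with library size alone aligned_1780 was called in obstructed WT kidney and averaged over genotypes. High-copy aligned_3484 ranged only from 158.9 to 376.9 CPM over the 12 libraries. Plod3's aligned_1780 had 131.6 and 128.8 CPM in WT normal, 206.1 and 148.5 in WT UUO and 89.42 and 71.81 in WT anti-GBM kidney. In KO it had 83.47 and 118.4, 91.44 and 113.1, and 172.7 and 164.3 CPM in the same states. Its KO anti-GBM libraries lay above the WT anti-GBM ones (log2 1.06 ± 0.43 SE, edgeR adjusted p = 0.294).

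With all 12 libraries, anti-GBM disease gave no called member in either genotype. Without the 3 libraries of low breadth, where 3 groups have 1 library, members were called, as given at the end. In WT edgeR called 0 of 59 members, beside 0.0201% of all transcripts. At an unadjusted p under 0.05 there were 4 members (6.56% of all transcripts), and DESeq2 called 0 (0.669%). In KO edgeR called 0 of 59, beside 0.0524% of all; 6 had an unadjusted p under 0.05 (8.74%) and DESeq2 called 0 (0.427%). Averaged over the genotypes edgeR called 0, beside 0.121%, with 7 at an unadjusted p under 0.05 (7.27%) and 0 by DESeq2 (0.653%). Obstruction within KO gave 0 calls in edgeR, beside 0.0121% of all transcripts. There 6 members, all lower, had an unadjusted p under 0.05 (5.97%), and DESeq2 called aligned_5220 alone (adjusted p = 0.0412; 0.496% of all transcripts).

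With all 12 libraries, TMM scaling and the filter on low counts, edgeR called no member in the genotype comparisons either. Some members were called without the 3 libraries of low breadth, as given at the end. In normal kidney KO against WT gave 0 of 59 in edgeR (0.0161% of all transcripts), 2 at an unadjusted p under 0.05 (2.21%) and 0 by DESeq2 (0.177%). In obstructed kidney it gave 0 (0.00806%), 4 unadjusted (6.08%) and 1 by DESeq2 (0.447%). In anti-GBM disease it gave 0 (0.0201%), 12 unadjusted (14.8%) and 1 by DESeq2 (1.75%). The 12 were the most members at an unadjusted p under 0.05 in any comparison between genotypes, on a background that was also the highest. Averaged over the states edgeR called 0 (0.0403%), with 4 unadjusted (9.08%) and 1 by DESeq2 (0.471%). The difference between the genotypes' obstruction responses gave 0 in edgeR (0.0604%), 3 unadjusted (5.63%) and 2 by DESeq2 (0.52%). For anti-GBM disease that difference gave 0 (0.0161%), 8 unadjusted (10%) and 0 by DESeq2 (0.508%).

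In anti-GBM kidney the members of low adjusted p between genotypes, short of a call, included aligned_3500 (KO against WT log2 1.49 ± 0.49 SE, edgeR adjusted p = 0.239) and aligned_7774, described above, and 2 more. Akt1s1's aligned_2663 had 59.01 and 48.99 CPM in WT anti-GBM and 245.9 and 131.2 in KO anti-GBM kidney, and 124.6 and 107.4 in WT normal and 66.53 and 95.38 in KO normal kidney. Its 2 KO anti-GBM libraries were the highest of the 12. KO against WT in this disease was 1.80 ± 0.49 (SE, log2; edgeR adjusted p = 0.168), and DESeq2 called it (adjusted p = 0.0357). Klhdc7a's aligned_6483 went the other way, with 365.1 and 267.4 CPM in WT anti-GBM and 141.8 and 101.3 in KO anti-GBM kidney, beside 273.6 and 418.3 in KO normal kidney. The difference between genotypes in anti-GBM disease was -1.38 ± 0.43 (edgeR adjusted p = 0.223), and with library size alone it passed (log2 -2.12, edgeR adjusted p = 0.0109). Of the 14 tested transcripts at other loci 13 lay below 0 in this comparison (median log2 -1.03 beside -0.61 over all transcripts), while 20 of the 34 mRNA-embedded ones lay above 0 (median 0.41). Of all transcripts 36.6% lay above 0. With library size alone 14 of the 34 mRNA-embedded ones lay above 0, beside 19.6% of all transcripts, and their median was -0.35. Without the libraries of low breadth 11 of the 14 other loci lay below 0 (median -0.60 beside -0.71 over all transcripts), and 24 of the 34 mRNA-embedded ones lay above 0 (median 0.75). Of all transcripts 35.0% lay above 0 there.

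The loci of established miRNAs were expressed at low levels, and 4 of them belong to lists of miRNAs grouped by role. The others described with them, mir-125b-1, mir-374, mir-615, mir-196a-1, mir-365-2 and mir-345, were chosen after their values were seen. The lists were searched among the 77 members only, and the 2 transcripts left out beforehand were not counted. Matched were 1 of 27 miRNAs in the TGF-beta and fibrosis list (mir-22) and 1 of 15 in the kidney epithelium list (mir-30b). In the list of proliferation and let-7 miRNAs 2 of 11 were matched (let-7c-2 and mir-15a). None of the 8 inflammation miRNAs was matched, and none of the lists for endothelium (1), hypoxia (1), mesenchyme (4), erythroid cells (2) or leukocytes (5). Mir-21 and mir-29 are thus not described here. None of the 4 matched was called in any of the 12 comparisons.

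Let-7c-2's transcript aligned_5468, 6411 bases long, matched a hairpin at chr15:85537033-85537127. Let-7 miRNAs are known to restrain proliferation. It had 35.71 and 27.77 CPM in WT normal, 92.62 and 34.18 in WT UUO and 31.38 and 47.58 in WT anti-GBM kidney. In KO it had 28.03 and 31.12, 92.92 and 25.28, and 34.29 and 27.38 CPM in the same states. The 2 values above 90 came from WT UUO 1 and KO UUO 1, both of low breadth, and the other 2 UUO libraries had 34.18 and 25.28 CPM, the latter the lowest of the 12. The averaged obstruction change was 1.00 ± 0.42 (SE, log2; edgeR adjusted p = 0.204), and the part of breadth in it was not tested.

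Mir-22, a miRNA studied mostly in heart and skeletal muscle, was matched by aligned_7981 with a hairpin at chr11:75277218-75277312, within exons annotated to 2210403K04Rik and Tlcd2. Its level was 5.101 and 3.445 CPM in WT normal, 6.51 and 8.337 in WT UUO and 5.332 and 7.029 in WT anti-GBM kidney. KO kidney had 6.25 and 2.706 CPM when normal, 6.66 and 3.326 after obstruction and 3.582 and 6.063 in anti-GBM disease. The 2 WT disease groups lay above WT normal while the KO groups overlapped, and no difference passed (WT UUO against WT normal log2 0.80 ± 0.82 SE, edgeR adjusted p = 0.679). Per length it was as abundant as the let-7c-2 transcript, with mean RPKM of 7.614 and 7.691.

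Mir-30b belongs to a family abundant in kidney epithelium. Its transcript aligned_667 (hairpin at chr15:68168977-68169072, minus strand) had 25.51 and 25.19 CPM in WT normal, 25.45 and 28.43 in WT UUO and 26.9 and 33.96 in WT anti-GBM kidney. KO normal kidney had 29.64 and 27.06 CPM, KO UUO 5.709 and 18.96, and KO anti-GBM 2.047 and 20.14. WT values were even, and all 4 diseased KO libraries lay below every other library. The lower of each KO pair was a library of low breadth, whereas WT UUO 1, also of low breadth, had 25.45 CPM. KO against WT in anti-GBM disease was -1.44 ± 0.74 (SE, log2; edgeR adjusted p = 0.359).

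Mir-125b-1, from a family related to the lin-4 miRNA of worms, was matched by aligned_7905 (hairpin at chr9:41390009-41390085, in introns of host transcripts). It had 4.251 and 2.584 CPM in WT normal, 20.27 and 14.84 in WT UUO and 4.726 and 5.299 in WT anti-GBM kidney. In KO it had 7.662 and 2.931, 2.431 and 8.982, and 4.094 and 3.52 CPM. The 2 WT UUO libraries were the highest of the 12, and KO UUO overlapped KO normal. The WT change of 2.35 ± 0.84 (SE, log2) did not pass in edgeR (adjusted p = 0.161) and passed in DESeq2 (adjusted p = 0.0177). Without the 3 libraries of low breadth edgeR's adjusted p was 0.0210, with WT UUO represented by 1 library that is assumed to vary like the other groups.

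The seed-sharing pair, mir-15a and mir-322, are members of the family that slows the cell cycle. Mir-15a's aligned_5793 had 2.551 and 2.799 CPM in WT normal and 3.024 and 3.833 in KO normal kidney. It had 0 reads in WT UUO 1 and KO UUO 1, 0.5118 CPM in KO anti-GBM 1, and 2.162 to 6.272 CPM in the other diseased libraries. The first 3 of these are the libraries of low breadth, and the part of breadth in these values was not tested. Mir-322's aligned_7943 (hairpin at chrX:50407432-50407526, minus strand) ran from 3.393 to 9.647 CPM in 10 libraries and had 0 and 1.173 CPM in KO anti-GBM kidney. Both KO anti-GBM libraries were therefore the lowest. That fall was not called (KO anti-GBM against KO normal log2 -3.29 ± 1.08 SE, edgeR adjusted p = 0.516). Mir-374's aligned_3912, also on chromosome X, was likewise lowest in both KO anti-GBM libraries, with 0.5118 and 0.3911 CPM against 2.016 to 5.637 elsewhere (KO against WT in this disease log2 -3.12 ± 1.14 SE, edgeR adjusted p = 0.279).

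Loci in and near Hox clusters and others had a few CPM or less. Mir-615's aligned_5245, whose hairpin lies within the annotated Hoxc5 gene, ran from 0.5118 to 5.672 CPM, both extremes being KO anti-GBM libraries. Mir-196a-1's aligned_2690 ran from 0 to 3.071 CPM, mir-365-2's aligned_9977 from 0 to 3.066 and mir-345's aligned_3915 from 0.2559 to 1.947. None of these 4 was called, and for the last 3 the lowest edgeR adjusted p over the 12 comparisons was 0.721, 0.636 and 0.859.

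**Figure D5:**
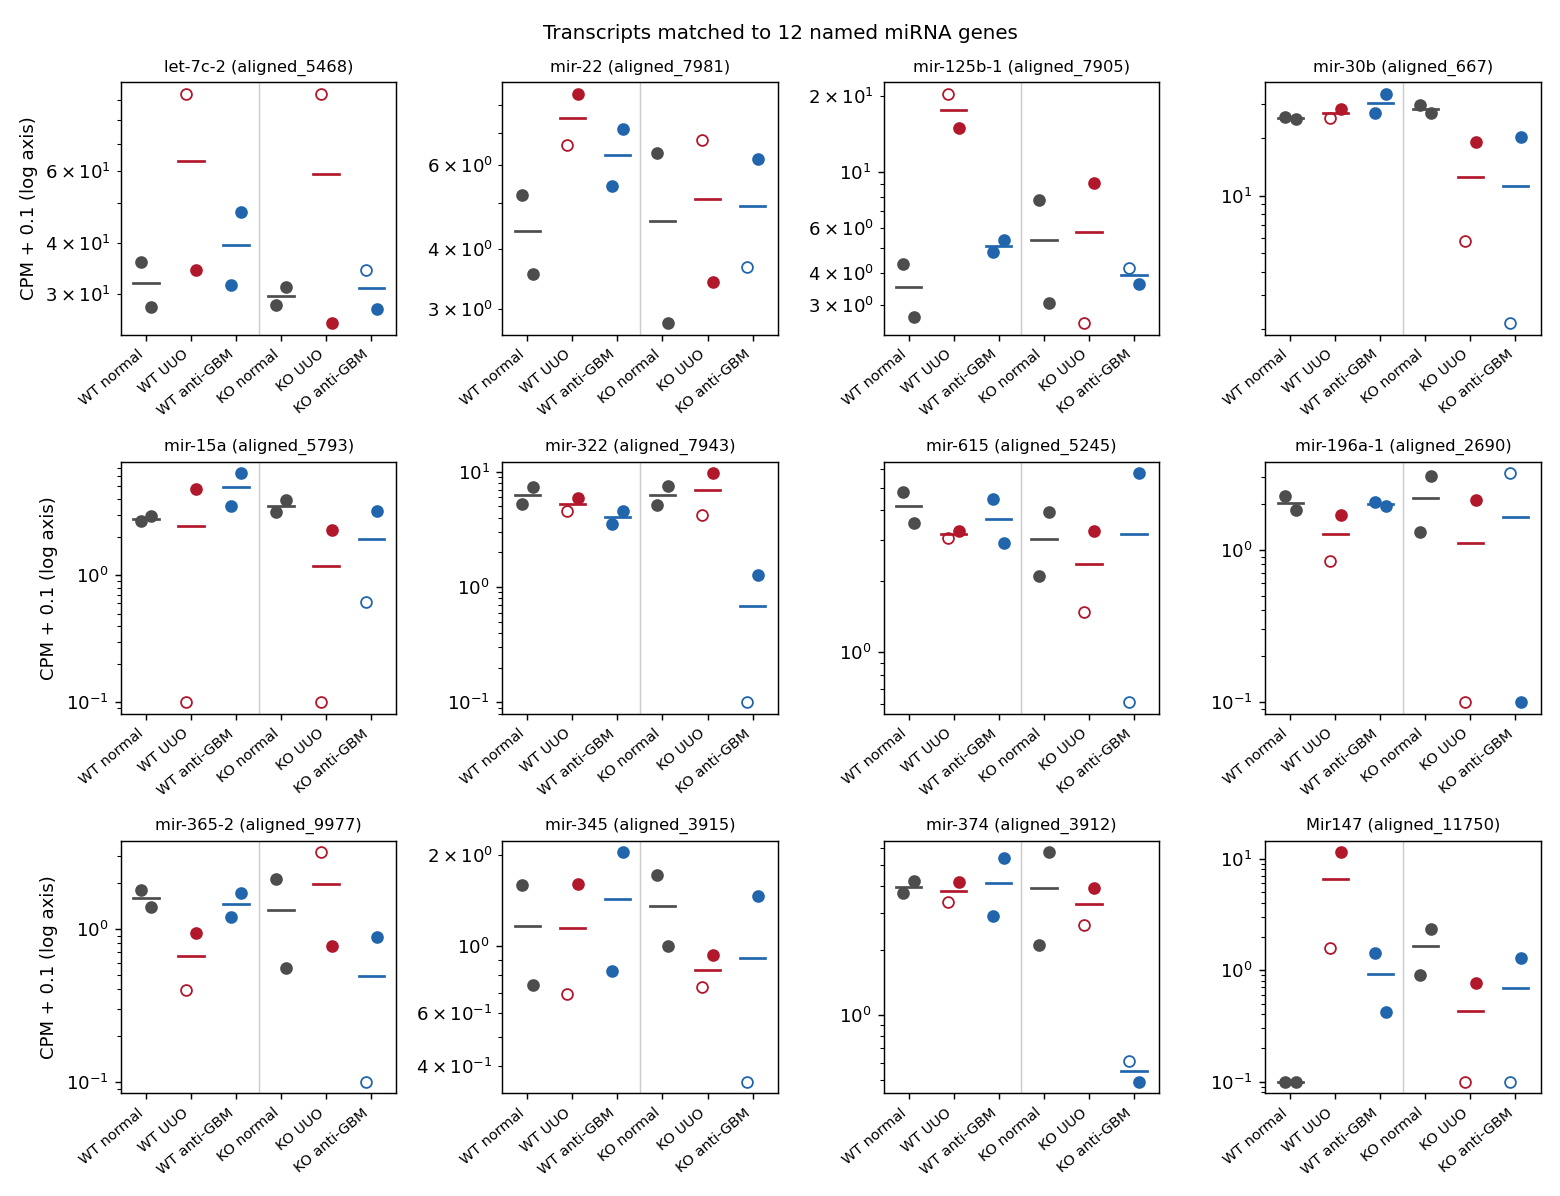
CPM + 0.1 (log axes, differing between panels) by group for transcripts matched to 12 named miRNA genes; points are libraries, open points the 3 libraries of low breadth, and bars group means. Mir-125b-1 is highest in both WT UUO libraries, mir-322 and mir-374 lowest in both KO anti-GBM libraries, and none was called.

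A transcript of mir-147, a miRNA known from activated macrophages, had its highest level in obstructed WT kidney. Its aligned_11750 matched a hairpin at chr2:122466539-122466617 in the untranslated region of the protein-coding gene AA467197. It had 0 reads in both WT normal libraries and 10 and 136 reads in WT UUO, or 1.479 and 11.34 CPM. WT anti-GBM kidney had 1.333 and 0.3244 CPM, KO normal 0.8065 and 2.255, KO UUO 0 and 0.6653, and KO anti-GBM 0 and 1.173. WT UUO 2 stood far above the rest, whereas WT UUO 1 lay within the range of KO normal kidney. The mean of WT UUO, 6.409 CPM, was at least 19.97-fold higher than WT normal, taking 3 reads over the group as the floor; edgeR's adjusted p was 0.0837 and DESeq2 called it. EdgeR's adjusted p was 0.283 without WT UUO 2 and 0.0179 without WT UUO 1, each time with the remaining library assumed to vary like the other groups. The second transcript of this hairpin, aligned_11751, had reads only in WT UUO 2 (2.751 CPM) and was not tested.

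Mir-546 lies in the untranslated region of Ctdsp2, a phosphatase, and was matched by 3 transcripts. The longest, aligned_1384 (6491 bases), had 0 reads in both KO anti-GBM libraries, against 1.454 and 1.406 CPM in WT anti-GBM and 1.613 and 1.804 in KO normal kidney. These means were at least 4.30-fold and 5.14-fold higher than KO anti-GBM, with 3 reads over the group as the floor. Its lowest edgeR adjusted p was 0.291. The other 2, aligned_1383 and aligned_1386, were more abundant per length (5.917 and 6.657 RPKM against 0.2808) and were highest or near highest in KO anti-GBM kidney, at 36.34 and 46.55 CPM and at 34.8 and 41.46 CPM. Aligned_1384 was named for its group without reads, at a mean of only 0.2808 RPKM. Whether its pattern differs from that of the other 2 was not tested.

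The next 2 members were chosen after their values were seen. Aligned_3692, matched to AL672259.1 at chr2:157388097-157388183 on the strand opposite Nnat, neuronatin, and in an intron of Blcap, had 10.2 and 9.043 CPM in WT normal and 33.58 and 28.85 in WT UUO kidney. KO normal kidney had 10.28 and 12.4 CPM and KO UUO 18.39 and 27.61, and no obstructed library overlapped a normal one. The averaged change came near the threshold (log2 1.36 ± 0.42 SE, edgeR adjusted p = 0.0743), and DESeq2 called it (adjusted p = 0.00119). With no strand recorded, reads of Nnat and of its opposite strand cannot be told apart.

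The repeat-derived aligned_2381, whose hairpin is the first of the 3 near-identical ones above, had 14.45 and 12.49 CPM in WT normal but 1.775 and 1.251 in WT UUO kidney. KO went the other way, with 0.4032 and 6.088 CPM when normal and 10.68 and 12.14 after obstruction. The groups did not overlap in either genotype. The WT change was -3.15 ± 0.94 (SE, log2; edgeR adjusted p = 0.0795) and the difference between the genotypes' responses 4.97 ± 1.30 (edgeR adjusted p = 0.211), which DESeq2 called. For the other 2 near-identical hairpins the WT fall was not seen. Aligned_3850 had 3.401 and 1.938 CPM in WT normal and 2.367 and 3.835 in WT UUO kidney, and in KO 3.226 and 2.48 when normal and 8.669 and 3.326 after obstruction, where both obstructed libraries lay above both normal ones. Aligned_3666 had 9.353 and 8.397 CPM in WT normal and 13.61 and 9.254 in WT UUO kidney, and in KO 5.04 and 10.82 when normal and 5.709 and 5.156 after obstruction.

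Of the members not named above, the mRNA-embedded ones matched hairpins in genes such as Nupl1, a nucleoporin (mir-719), Prmt2, an arginine methyltransferase (mir-678), Mex3d, which binds RNA, and Lars2, the mitochondrial leucyl-tRNA synthetase. Their most abundant transcripts had mean RPKM of 17.58, 15.65, 15.21 and 13.49, in that order. None was called. The 3 transcripts described next, aligned_3296, aligned_7010 and aligned_6484, were chosen after their values were seen. Aligned_3296, whose hairpin lies on the strand opposite Mex3d, was high where the abundant Ptma-like and mir-682 transcripts were low. It had 88.77, 78.55 and 98.52 CPM in WT UUO 1, KO UUO 1 and KO anti-GBM 1. The other 9 libraries had 22.93 to 45.92 CPM. In the high-copy class aligned_7010, whose hairpin has 48693 near copies, had 5.474, 4.017 and 7.677 CPM in those 3 libraries and 18.34 to 36.3 in the others. Low breadth thus went with high values of some members and low values of others. Other high-copy transcripts had mean RPKM of 10.44 (aligned_11806), 6.47 (aligned_10348) and 5.585 (aligned_8529). Among the other loci aligned_6484, in the pseudogene Gm11619, had 6.164 and 5.598 CPM in WT normal, 0 and 2.835 in WT UUO, 9.476 and 8.568 in KO normal and 0.8457 and 0.9979 in KO UUO kidney. Its obstructed libraries lay below the normal ones in both genotypes, without a call (averaged log2 -2.63 ± 0.94 SE, edgeR adjusted p = 0.129). The 18 members that did not pass the filter were listed in 1 to 10 libraries with 2 to 51 reads in all, and their mean RPKM ran from 0.0482 to 3.271.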

How the data were processed

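Each of the 12 deposited tables lists, per the file headers, putative noncoding transcripts with uniquely mapped reads (counts), RPKM, the percent of the transcript covered, the coverage depth (signal) and the best database match. The submitters' processing notes name Bowtie 0.12.7 as aligner and the mm9 build; assembly, read assignment and strand are not given in the sources used here. Per the labels' protocols, ribosomal RNA was removed and RNA over 150 bases selected on a gel. The deposited RPKM equals reads per length and library total. Tables list transcripts with reads, and one missing from a table was taken as 0. Members, lists and tests were chosen with earlier results of these data known, and the locus classes after the data were seen. Members named are those called in any comparison, the 10 of highest mean RPKM, those on a list, those sharing a miRNA or seed with them, and those with 0 reads in one group and 10 or more in each library of another; others are said to be chosen later. Counts were tested with edgeR 4.0.16 (R 4.3.3): TMM, filterByExpr, robust quasi-likelihood fit of 6 group means, Benjamini-Hochberg over 24816 transcripts. DESeq2 1.42.0, DESeq2 size factors, library size alone, no filter, 9 libraries without those of low breadth, halved counts and leaving out each library were alternatives. Means of 2 libraries carry little precision, and the p-values weigh group differences against a spread between animals pooled over groups. Hairpins were placed with the mm9 annotation and blastn; sequences of mature miRNAs are from RefSeq (GRCm38.p6).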

Additional observations from a re-analysis of the deposited data

How the results depend on the processing

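The counts of members called changed with the processing. The 30 single-transcript log2 changes with an unadjusted edgeR p under 0.01 kept their sign under the alternatives run. They were picked for low p in the same data, so their kept signs say little. Other changes did not all keep theirs: aligned_3484 in WT anti-GBM kidney turned from below to above 0 with library size alone. Medians of the mRNA-embedded class turned with library size alone, from -0.72 to 0.32 in WT UUO and from 0.41 to -0.35 in KO against WT anti-GBM kidney. No paired analysis was possible because the labels give each animal its own number and no number that the groups share. The percent in brackets is the share of all tested transcripts called by the same rule. With DESeq2 size factors 1 member was called in WT UUO against WT normal (2.34%). With library size alone 5 were called in that comparison (4.03%), 1 in KO against WT anti-GBM kidney (0.838%) and 7 in the averaged obstruction comparison (8.99%). Without a filter on low counts 4 were called in WT UUO (2.46%), 1 in KO UUO against KO normal (0.25%) and 1 in KO against WT averaged over states (0.181%). DESeq2 called 7 in WT UUO (5.55%), and 1 each in KO UUO against KO normal (0.496%), KO against WT in UUO (0.447%), KO against WT in anti-GBM disease (1.75%) and KO against WT averaged (0.471%); it called 2 in the difference between obstruction responses (0.52%). In the 9 libraries left without the 3 of low breadth, where 3 groups have 1 library assumed to vary like the others, 11 were called in WT UUO (10.9%), 6 in WT anti-GBM (7.14%), 3 in KO UUO (1.16%) and 2 in KO anti-GBM (1.28%). There 1 was called in KO against WT in UUO (0.869%), 8 in KO against WT in anti-GBM disease (7.38%), 11 in averaged obstruction (9.65%), 4 in averaged anti-GBM (2.92%), 2 in averaged KO against WT (3.62%), 3 in the difference between obstruction responses (2.07%) and 4 in that between anti-GBM responses (5.08%). Leaving out 1 library at a time gave 1 to 7 calls in WT UUO (1.15% to 5.99%), 0 to 8 in KO UUO (0.114% to 3.74%), 0 to 4 in KO anti-GBM (0.0779% to 1.49%), and 0 to 0 in WT anti-GBM (0.0308% to 0.937%) and in KO against WT normal (0.0389% to 0.273%). It gave 0 to 1 in KO against WT UUO (0.159% to 1.03%), 0 to 2 in KO against WT anti-GBM (0.12% to 1.74%), 2 to 15 in averaged obstruction (1.98% to 9.98%) and 0 to 5 in averaged anti-GBM (0.162% to 1.93%). It gave 0 to 1 in averaged KO against WT (0.0613% to 2.27%), 0 to 2 in the difference between obstruction responses (0.114% to 0.919%) and 0 to 1 in that between anti-GBM responses (0.05% to 0.818%). The cause of these changes was not tested. Depth limits the low loci: 18 of the 77 members had too few reads to be tested, and counting error alone is large for those of a few CPM.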
